A study of Mus musculus with 2 samples.

Results

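The genes described here encode the proteins of the cytosolic ribosome, the particle that translates mRNA in the cytoplasm. Members were chosen by symbol: Rpl or Rps followed by a digit, together with Rpsa, Rplp0, Rplp1 and Rplp2, without the Rps6k kinases and without names holding "-ps", and with at least 50 unique molecular identifiers (UMIs, 1 per captured transcript) over both libraries. Of 86 names in the files, 84 passed, among 12427 genes with 50 UMIs. Rpl10l had 1 UMI and Rpl3l had 0, and the member with the fewest, Rpl39l, had 154 UMIs in 1 library and 106 in the other. The members comprised 50 large subunit genes, 33 small subunit genes and Rps19bp1, which the symbol rule admits although its product binds a ribosomal protein and is not one itself.

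ILC2s, the group 2 innate lymphoid cells, reside in tissues such as lung and make type 2 cytokines such as IL-5. The study sorted lung ILC2s from WT mice and from mice lacking Pac1 (gene symbol Dusp2), a nuclear phosphatase of MAP kinases. It profiled them by droplet 3′ single-cell RNA sequencing, and its single-cell methods name no treatment of the mice. There was 1 WT library and 1 Pac1-KO library. Both came from C57BL/6J mice, 6 to 8 weeks old, with the cells of 4 to 5 mice pooled and no label that assigns a cell to a mouse. Pac1-/- mice lack the gene in all cells and not only in ILC2s. With 1 library per genotype no test was possible, and a difference between the libraries cannot be told apart from a difference between their preparations. All intervals given are 95% intervals that cover counting error only.

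The ribosome has a small subunit, which reads the mRNA, and a large subunit, which joins the amino acids. Each contains ribosomal RNA and a fixed set of proteins at 1 copy each, with the exception of the acidic P proteins of the large subunit stalk, which recruits translation factors. Lymphocytes devote a large share of their mRNA to these proteins and enlarge the pool when they are activated. Most ribosomal protein mRNAs begin with a 5′ terminal oligopyrimidine (TOP) tract, a C followed by a run of C and T, through which the kinase mTOR and the RNA-binding protein LARP1 control their translation together with that of several translation factors.

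The libraries held 8394 WT and 7087 Pac1-KO barcodes with at least 500 genes and at most 10% mitochondrial UMIs, with medians of 4187 and 5577 UMIs. Dusp2 itself had 1419 UMIs in the WT library and 5 in the Pac1-KO library (26.0 and 0.0857 counts per 1000000 UMIs, CPM). Gata3 was detected in 88.8% and 90.7% of barcodes and Il1rl1, which encodes ST2, in 91.9% and 92.9%. The 9 ILC2 markers summed to 6726 and 6171 CPM. The 34 markers of 10 other cell types summed to 271 and 510, with the erythroid list moving most, from 76.1 to 269, and with Cd8a and S100a8 at 0. The libraries shared 15 cell barcodes. The study kept fewer cells after an initial filter, the thresholds of which are not given in the sources used here.

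The start sites show the TOP tract of several members that lead the comparison, among the 5 with the most UMIs and the 5 highest and 5 lowest in the Pac1-KO library. Each line holds 15 bases before and 15 from the RefSeq start (GRCm38.p6), 5′ to 3′ on the transcribed strand. Capitals mark a C followed by at least 4 bases that are C or T, with the C within 5 bases of the start.
Rps27, chr3:90213634-90213663, minus strand: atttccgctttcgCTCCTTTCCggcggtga
Rps27rt, chr9:114982725-114982754, minus strand: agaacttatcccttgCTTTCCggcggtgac
Rps21, chr2:180257364-180257393, plus strand: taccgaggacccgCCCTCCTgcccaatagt
Rps21, second start, chr2:180257434-180257463, plus strand: ggacaagtgagcaggtaggcctcggtgcgg
Rpl38, chr11:114668565-114668594, plus strand: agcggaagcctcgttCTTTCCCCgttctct
Rps24, chr14:24490663-24490692, plus strand: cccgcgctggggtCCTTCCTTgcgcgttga
Rps24, second start, chr14:24490738-24490767, plus strand: tccggcgccgtagccatcatggtgagtctc
Rps9, chr7:3704026-3704055, plus strand: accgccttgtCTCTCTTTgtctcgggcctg
Rps28, chr17:33824548-33824577, minus strand: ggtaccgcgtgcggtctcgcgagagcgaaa
Rpl9, chr5:65391417-65391446, minus strand: acgcagggccctgacggattacaagaacgt
Rpl10, chrX:74270801-74270830, plus strand: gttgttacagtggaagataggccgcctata
Rps21 and Rps24 have a pair of annotated starts each, of which 1 holds the tract. Of the 66 named genes with a RefSeq window, 30 (45.5%) held such a tract in at least 1 window, against 21.2% of the 27025 genes in the table. The tract was found in members at both ends of the comparison (Rps27 and Rpl38 at the low end, Rps9 at the high end) and was not matched in others at each end (Rps28, Rpl10). The median log2 ratio, Pac1-KO over WT and relative to the median gene, was -0.05 for the 30 members with a match and -0.04 for the 34 members without one. The match depends on the annotated start, so a member without a match may still carry the tract. These medians therefore do not compare members that have the tract with members that lack it.

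The members together took almost the same part of the mRNA in both libraries. They held 15046845 of 54579034 UMIs in the WT library (27.6%) and 15742431 of 58338886 in the Pac1-KO library (27.0%). The log2 ratio of these shares was -0.03 as counted. The median of the 12427 genes was itself 0.19 higher in the Pac1-KO library on the log2 scale, and relative to it the members were at -0.22 (interval -0.22 to -0.22). The large subunit took 14.9% and 14.7% of UMIs and the small subunit 12.7% and 12.3%.

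Beneath this near-constant total, single members differed widely. A member was called higher or lower when its log2 ratio relative to the median gene was above 0.32 or below -0.32, a ratio of 5 to 4. By this measure 22 members were higher in the Pac1-KO library, against 21.6% of all genes, and 24 were lower, against 24.4% of all genes. These are 26.2% and 28.6% of the members, close to the background. Among genes with at least 1000 UMIs, the background was 17.1% higher and 22.7% lower. Without scaling to the median gene, 35 members were above 0.32 and 19 below -0.32, against 36.8% and 15.6% of all genes. The members' median was 0.03, but their SD across genes of 0.70 on the log2 scale went with ratios from -1.88 to 2.80. Of the 84 members, the counting interval of 21 lay wholly above 0.32 and that of 23 wholly below -0.32. The same count over all genes is not given here. Members with many UMIs have narrow intervals, so these counts do not set the members apart from other genes.

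**Figure D1:**
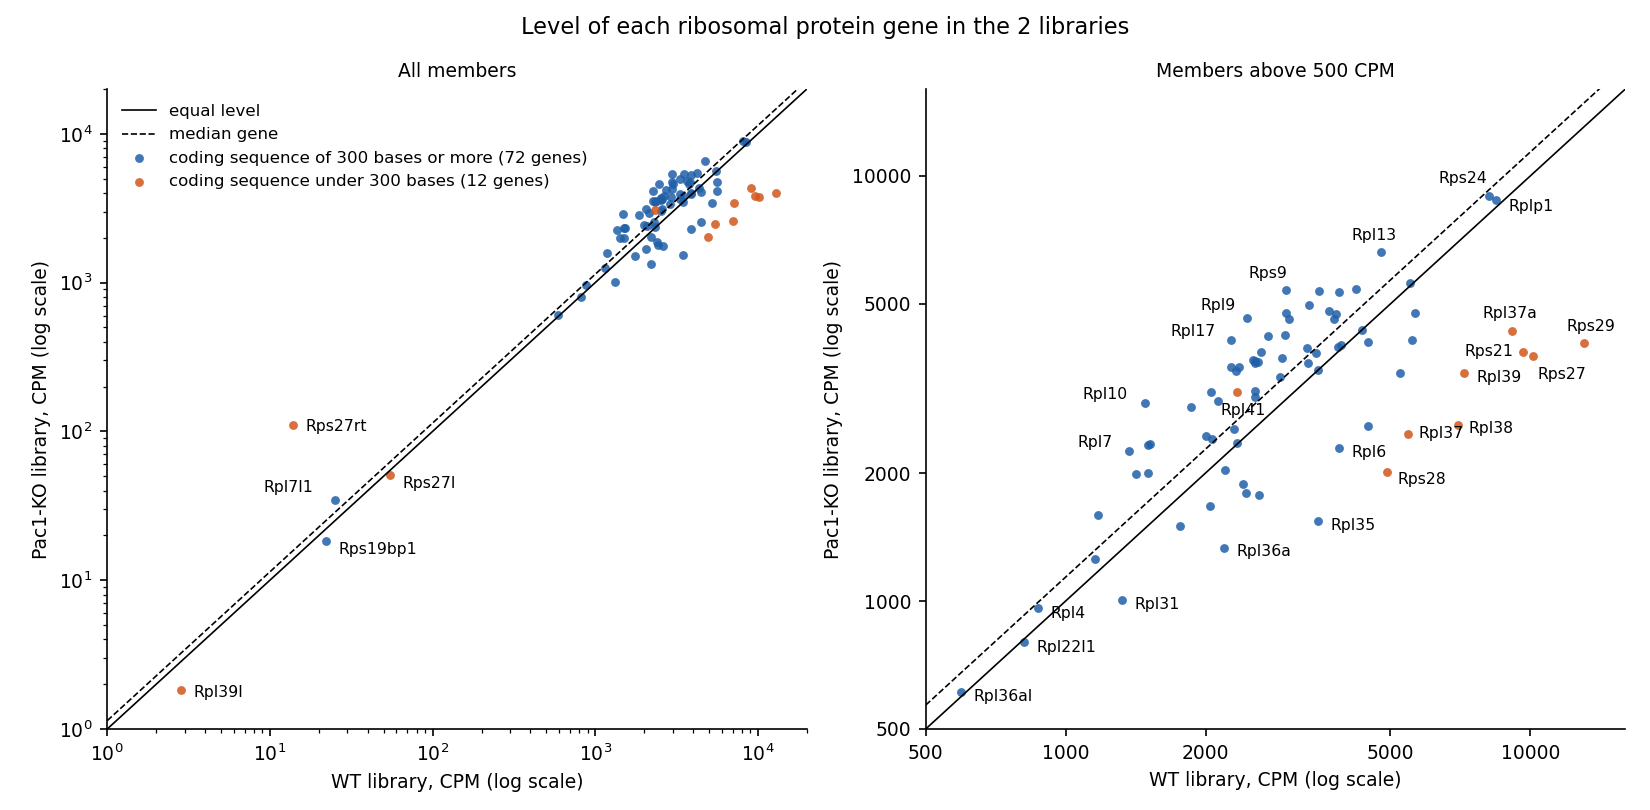
Level of each of the 84 members in the WT library (horizontal axis) and the Pac1-KO library (vertical axis), in CPM on log scales, with all members at the left and those above 500 at the right. Points are genes, coloured by coding length; the solid line marks equal levels and the dashed line the median gene. Most members form a band along the lines, while 9 of the 12 members with a coding sequence under 300 bases lie more than 0.32 below the median gene on the log2 scale.

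The order of the most abundant members changed between the libraries. Each captured transcript gives 1 UMI, but reads that match several annotated genes are not counted, so the order given is of counted UMIs. In the WT library the highest was Rps29 at 13013 CPM, followed by Rps27 at 10132, Rps21 at 9638, Rpl37a at 9129 and Rplp1 at 8413. Neighbours in this order were apart beyond their counting intervals. In the Pac1-KO library the order was Rps24 at 8984, Rplp1 at 8759, Rpl13 at 6616, Rpl23 at 5601 and Rps14 at 5430. The 5 leading members made up 18.3% of all member UMIs in the WT library and 13.1% in the Pac1-KO library. Levels ran from 2.82 to 13013 CPM with a median of 2596 in WT, and from 1.82 to 8984 with a median of 3437 in Pac1-KO. All but 5 members (Rpl39l, Rps27rt, Rps19bp1, Rpl7l1 and Rps27l) were above 500 in both libraries.

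Rps29, Rps27, Rps21 and Rps28 were the 4 lowest small subunit genes. Rps29, a zinc-binding protein of the subunit head, stood at 13013 CPM in WT and 4035 in Pac1-KO, a relative log2 ratio of -1.88 (interval -1.88 to -1.87). Rps27, another zinc-binding protein, went from 10132 to 3764 (relative -1.62). Rps21 went from 9638 to 3853 (relative -1.51). Rps28 went from 4915 to 2016 (relative -1.47). These 4 genes were among the most abundant small subunit members in WT, and relative to the median gene they were 2.78- to 3.67-fold lower in the Pac1-KO library. Apart from Rps27rt, described below, Rps9 was highest, at 2984 in WT and 5387 in Pac1-KO (relative 0.67). Rps24, the most abundant member in Pac1-KO, was nearly level, at 8145 and 8984 (relative -0.05, and 0.14 as counted). Over the 33 genes, 12 (36.4%) were higher and 8 (24.2%) lower, against 21.6% and 24.4% of all genes. Their median was 0.17 relative to the median gene.

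Among large subunit genes, Rpl38 went from 6988 CPM in WT to 2595 in Pac1-KO (relative log2 ratio -1.62). Rpl35, which lies at the exit of the peptide tunnel, went from 3487 to 1539 (relative -1.37). Rpl37, Rpl37a and Rpl39 stood at 5442, 9129 and 7186 in WT and at 2468, 4324 and 3435 in Pac1-KO, or -1.33, -1.27 and -1.25 relative to the median gene. The highest were Rpl10 and Rpl9. Rpl10, which is added late in the assembly of the large subunit, was at 1484 in WT and 2917 in Pac1-KO (relative 0.79). Rpl9 was at 2453 and 4622 (relative 0.73). Rpl17 was at 2272 and 4116 (relative 0.67). Over the 50 genes, 10 (20%) were higher and 15 (30%) lower, against 21.6% and 24.4% of all genes. Their median was 0.03.

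The stalk genes did not move together. Rplp0, the base of the stalk, was at 2130 CPM in WT and 2956 in Pac1-KO (relative log2 ratio 0.29). Rplp1 was at 8413 and 8759 (relative -0.13), and Rplp2, its partner in the stalk dimers, at 5571 and 4111 (relative -0.63). Of the 3, only Rplp2 was past 0.32 in either direction, and Rplp1 changes sign, to 0.06, when the ratio is not scaled to the median gene. Rpsa, a small subunit protein also known as a laminin receptor, was at 4352 and 4330 (relative -0.19). Rps19bp1, which is not a ribosomal protein, had 1205 and 1067 UMIs (relative -0.46).

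Several members have a paralog that can take the same place in the ribosome. Rpl22, the RNA-binding member with a known role in T cell development, was at 2405 CPM in WT and 1887 in Pac1-KO (relative log2 ratio -0.54), while its paralog Rpl22l1 was at 814 and 803 (relative -0.21). Rps27l, a target of p53, was at 54.98 and 50.79 (relative -0.30), far nearer to the median gene than Rps27 at -1.62. Rpl36a was at 2190 and 1333 (relative -0.90), and Rpl36al at 595 and 610 (relative -0.15, and 0.04 as counted). Rpl39l, known from male germ cells, was at 2.82 and 1.82 (relative -0.82, interval -1.19 to -0.46). Rpl7 was at 1370 and 2253 (relative 0.53), and Rpl7l1, a protein of ribosome assembly, at 24.99 and 34.66 (relative 0.28). Rpl3 was at 1518 and 2337 (relative 0.44) and Rps4x, on the X chromosome, at 2361 and 3545 (relative 0.40). Rpl22l1, Rps27l and Rpl36al thus lay within 0.32 of the median gene while Rpl22, Rps27 and Rpl36a were called lower. Rps27rt, the copy of Rps27 with an identical coding sequence described below, was at 2.80.

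The members that were low in Pac1-KO had short coding sequences. In the GENCODE M21 annotation (GRCm38) the members' coding sequences ran from 75 to 1257 bases, and 12 of 84 (14.3%) were under 300 bases, against 2.23% of the 11201 coding genes with 50 UMIs. The line at 300 bases was drawn after the values had been seen. The 12 short members went from 68849 CPM in WT to 29753 in Pac1-KO, and the other 72 from 206840 to 240091. Relative to the median gene the summed log2 ratio was -1.40 for the short members and 0.03 for the others. Of the 12, 9 were lower and 1, Rps27rt, was higher. Of the 72, 15 (20.8%) were lower and 21 (29.2%) higher, against 24.4% and 21.6% of all genes. Across the 83 members with 1000 UMIs, Spearman's rho between coding length and relative ratio was 0.59 (Pearson's r with log2 length 0.44). Without Rps27rt rho was 0.64, and among members with at least 300 coding bases it was 0.54. These correlations are over genes of the same 2 libraries, which are not independent replicates.

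The step was graded. Members with 1000 UMIs and under 300 coding bases had a median relative log2 ratio of -1.33 (11 genes), those of 300 to 400 bases -0.31 (18 genes), those of 400 to 500 bases 0.10 (23 genes), those of 500 to 700 bases 0.36 (16 genes) and those of 700 bases or more 0.30 (15 genes). There were exceptions on both sides. Rpl41, the shortest member at 75 coding bases, was at 2334 CPM in WT and 3099 in Pac1-KO (relative 0.22). Rpl6, with 888 coding bases, went the other way, from 3875 to 2287 (relative -0.95).

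Among other genes too, those with the shortest transcripts were low in Pac1-KO, but without a steady rise with length. Among the other genes with 1000 UMIs, mitochondrial transcripts left out, the 36 with an annotated transcript under 500 bases had a median relative log2 ratio of -0.64, and 24 of them were below -0.32. The 11 members in that class had a median of -0.98, and 8 were lower. For transcripts of 700 to 1000 bases the medians were 0.30 in 293 other genes and 0.29 in 26 members. For the 5261 other genes with transcripts of 2000 bases or more the median was -0.06. By coding length the 183 other genes under 300 bases had a median of -0.05, the 284 of 400 to 500 bases 0.25 and the 5785 of 700 bases or more -0.04. Over 7203 other genes rho was -0.21 with each of coding and transcript length. Among members, rho with transcript length was 0.30, below that with coding length.

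**Figure D2:**
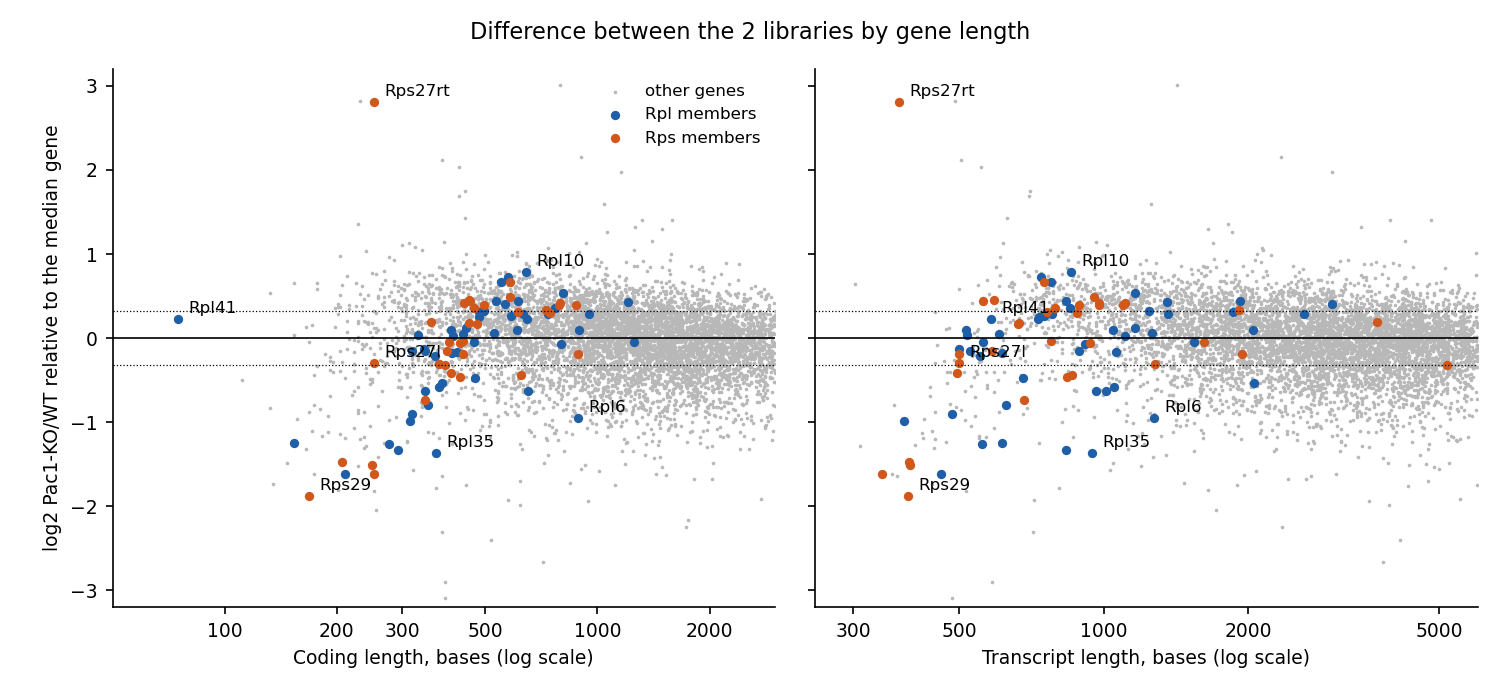
Relative log2 ratio (Pac1-KO over WT, 0 at the median gene) of each gene with 1000 UMIs against its coding length (left) and annotated transcript length (right), both in bases on log scales. Blue and orange points are Rpl and Rps members, grey points are other genes, dotted lines mark 0.32 and -0.32, and genes beyond 3.2 in either direction or outside the length axes are not drawn. The members rise from about -1.33 under 300 coding bases to about 0.3 above 500, with Rpl41, Rps27rt and Rpl6 off the trend.

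The balance between short and longer members differed between the libraries in each kind of barcode compared. The 12 short members made up 24.97% of member UMIs in WT barcodes that passed the filter, 26.3% in the 2472 that failed it and 24.8% in the 10 with UMIs of at least 3 of 5 B cell markers. In Pac1-KO the same shares were 11.03%, 12.7% in 2408 failing barcodes and 11.2% in 23 B cell marker barcodes. In cells thinned to 2000 UMIs each, the median share was 25% in 7480 WT cells and 11.1% in 6470 Pac1-KO cells. The cells' SDs were 2.18 and 1.51 points, where counting alone gives 1.86 and 1.38. No WT cell lay below the 95th percentile of Pac1-KO cells (13.7%). Across the 83 members, the relative ratios in passing and in failing barcodes had a Pearson's r of 0.97. In failing barcodes 5 members were called higher and 39 lower, against 29.6% and 32.4% of all genes. Library preparation, RNA fragment length and alignment were not compared here, and their part in the difference was not tested.

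**Figure D3:**
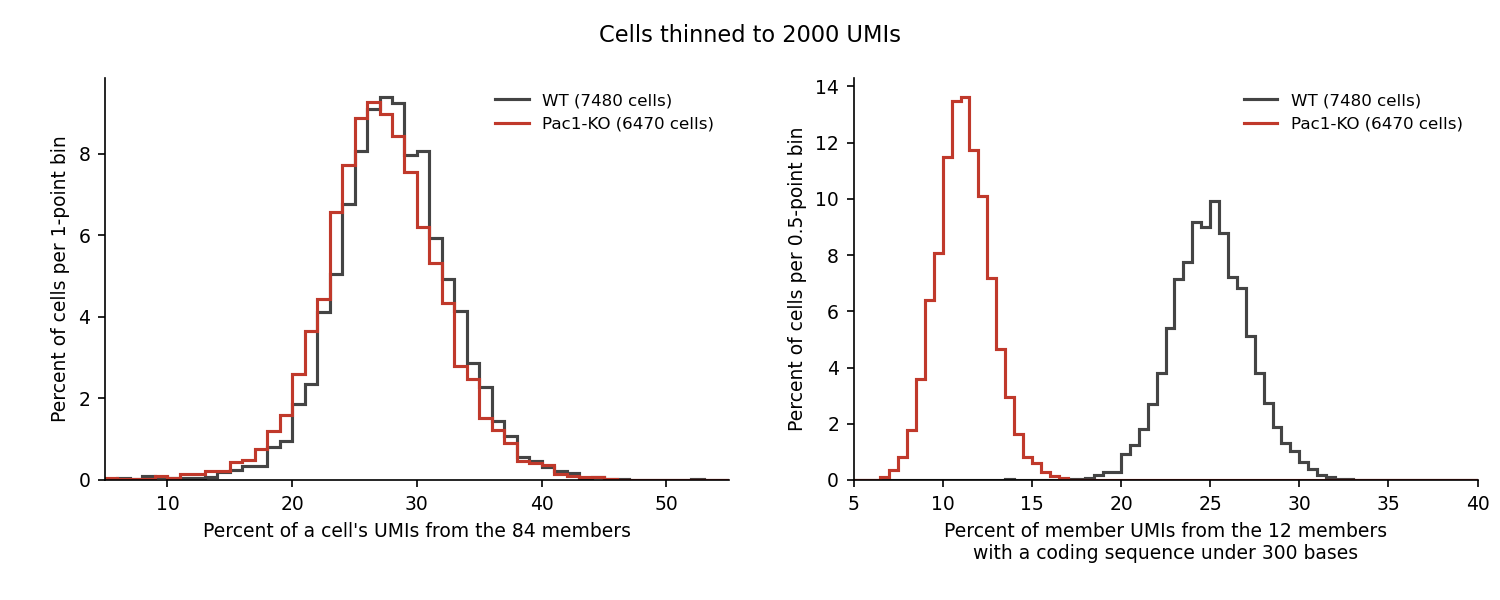
Distribution over cells, each thinned to 2000 UMIs, of the percent of UMIs from the 84 members (left) and of the percent of member UMIs that come from the 12 members with under 300 coding bases (right). Lines give the percent of cells per bin in the WT and Pac1-KO libraries. The left distributions nearly coincide around 28.0% and 27.2%, whereas the right ones stand apart around 25% and 11.1%.

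The coding sequences of many members are found in more than 1 gene, while the reads themselves were not examined. Of the 84 members, 30 had every 60-base window of their coding sequence present in another annotated gene, and 69 had at least 50% of windows so. The share of copied windows had a Spearman's rho of 0.12 with the relative ratio. The pair Rps27 (chr3:90212522-90213651, minus strand) and Rps27rt (chr9:114982366-114982739, minus strand) is an example. Their coding sequences, 252 bases, are identical (0 differences) and read as follows, with no capitals because no base differs.
Rps27 and Rps27rt: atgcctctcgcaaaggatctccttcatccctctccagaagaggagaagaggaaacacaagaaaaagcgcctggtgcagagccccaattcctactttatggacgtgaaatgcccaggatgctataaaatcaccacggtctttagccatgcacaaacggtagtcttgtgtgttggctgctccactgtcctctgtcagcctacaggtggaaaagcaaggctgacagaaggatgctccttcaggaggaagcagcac
The paralog Rps27l (chr9:66946086-66949516, plus strand) has the same coding length and differs from Rps27 at 60 bases (76.2% identity), shown in capitals.
Rps27l: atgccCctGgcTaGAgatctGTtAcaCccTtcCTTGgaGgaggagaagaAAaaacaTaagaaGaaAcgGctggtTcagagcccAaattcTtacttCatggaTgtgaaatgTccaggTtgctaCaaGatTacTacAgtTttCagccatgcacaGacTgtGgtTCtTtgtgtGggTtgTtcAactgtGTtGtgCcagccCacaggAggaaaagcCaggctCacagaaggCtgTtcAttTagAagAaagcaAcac
Rps27rt had 758 UMIs in WT and 6436 in Pac1-KO (13.9 and 110 CPM, relative log2 ratio 2.80), whereas Rps27 had 552965 and 219605. Rps27rt made up 0.137% of the pair's UMIs in WT and 2.85% in Pac1-KO, and the pair's sum had a relative ratio of -1.58. How reads were divided between these loci is uncertain, and the value for Rps27rt should be read with that.

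The per-cell share of UMIs from members was broad and alike in both libraries. In thinned cells it had a mean of 28.1% and an SD of 4.68 points in WT and a mean of 27.2% and an SD of 4.80 points in Pac1-KO, where counting alone gives an SD of 1.0 in each. The 5th and 95th percentiles were 20.8% and 35.7% in WT and 19.7% and 35.2% in Pac1-KO. Large and small subunit shares rose and fell together across cells, with r of 0.86 and 0.88. These values describe cells of 1 library each, share the same total and carry no test. The share fell slightly with the depth a cell had before thinning, from 28.8% in the shallowest of 5 bins of WT cells to 27.2% in the deepest, and from 27.9% to 26.8% in Pac1-KO.

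Cells were next divided by whether the thinned cell held a UMI of Il5, Il2 or Txnip. Il5 encodes the eosinophil growth factor made by ILC2s, Il2 a lymphocyte growth factor, and Txnip an inhibitor of thioredoxin and of glucose uptake. Il5 was detected in 37.5% of 7480 thinned WT cells and in 22.4% of 6470 Pac1-KO cells (53.1% and 39.5% before thinning). The shares for Il2 were 9.25% and 9.21% (19.9% and 25.5% before thinning), and for Txnip 27.4% and 41.2% (47.1% and 65.6%). Of barcodes with B cell markers, which should lack Il5 and Il2, 2 of 10 in WT and 1 of 23 in Pac1-KO held an Il5 UMI. For Il2 these counts were 0 of 10 and 0 of 23, which allow a share of up to 30% and 13.0% by the limit of 3 counts, with exact binomial upper bounds of 30.8% and 14.8%. Txnip, which many cell types express, was found in 3 of 10 and 11 of 23. Their median depths were 4298 and 4652 UMIs.

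Cells with Txnip UMIs had less ribosomal protein mRNA in both libraries. In WT the members took 27.4% of UMIs in the 2049 cells with Txnip and 28.3% in the 5431 without. In Pac1-KO the values were 26.5% in 2666 cells and 27.8% in 3804 cells. The log2 ratios as counted were -0.05 and -0.07, and relative to the median gene, which was itself higher in Txnip cells by 0.11 and 0.13, they were -0.16 and -0.20. Averaged over 5 bins of depth the relative ratios shrank to -0.078 and -0.10. The cells overlapped almost wholly, with SDs of 4.70 and 4.65 points in WT and 4.61 and 4.85 in Pac1-KO. The shift was nevertheless spread over nearly every member. Of 82 members tested in WT, 81 lay below the median gene, and of 83 in Pac1-KO, 81 did. It was present in 5 of 5 bins of depth in each library, with differences between -1.70 and -0.43 points in WT and between -2.0 and -0.57 points in Pac1-KO. Few members were past 0.32 in either direction: 0 higher and 0 lower in WT, where 6.79% and 7.59% of all genes were, and 2 higher and 0 lower in Pac1-KO, where 6.40% and 8.07% were. Cells with Txnip also had more genes per thinned cell, 954 against 917 in WT and 994 against 944 in Pac1-KO. The 34 markers of other cell types summed to 431 CPM with Txnip and 241 without in WT, but to 428 and 673 in Pac1-KO. The part of gene number and of these markers in the lower member share was not tested.

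The members that stood lowest with Txnip were Rps2, Rpl22l1 and Rpl15. Rps2, at the mRNA entry of the small subunit, was at 2144 CPM with Txnip and 2359 without in WT, and at 3177 and 3538 in Pac1-KO (relative log2 ratios -0.25 and -0.29). Rpl22l1 was at 757 and 843 in WT and 766 and 813 in Pac1-KO (relative -0.27 and -0.22). Rpl15 was at 1436 and 1543 in WT and 2187 and 2376 in Pac1-KO (relative -0.22 and -0.25). The highest were Rpl7l1, Rps19bp1 and Rpl36al. Rpl7l1 was at 30.5 with Txnip and 22.6 without in WT and at 41.9 and 29.7 in Pac1-KO (relative 0.32, with an interval of -0.0048 to 0.63 that includes 0, and 0.36, interval 0.09 to 0.64). Rps19bp1 had relative ratios of -0.10 in WT (interval -0.45 to 0.23) and 0.45 in Pac1-KO (interval 0.05 to 0.84). Rpl36al had -0.13 and -0.10.

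By Il5 status the direction depended on the scale. As counted, the members took 27.8% of UMIs in 2803 WT cells with Il5 and 28.2% in 4677 without, and 26.8% in 1450 and 27.4% in 5020 Pac1-KO cells, log2 ratios of -0.02 and -0.03. The median gene was lower in Il5 cells by more, at -0.13 and -0.15, so that relative to it the members were at 0.11 and 0.13. The counted share was lower with Il5 in 4 of 5 depth bins in each library, between -0.31 and 0.01 points in WT and between -0.68 and 0.06 points in Pac1-KO. Cells with Il5 had been deeper before thinning, with medians of 5730 against 4150 UMIs in WT and 7533 against 5607 in Pac1-KO. Averaged over depth bins, the relative ratios shrank to 0.01 and 0.02. Markers of other cell types were lower with Il5, at 180 against 360 CPM in WT and 337 against 640 in Pac1-KO, and their part in the result was not tested. Of the members tested, 82 of 82 in WT and 82 of 83 in Pac1-KO were above the median gene, but as counted 59 and 64 were lower in cells with Il5. In WT 2 members were above 0.32 and 0 below -0.32, where 14.7% and 10.5% of all genes were. In Pac1-KO 1 was higher and 0 lower, where 15.7% and 12.3% were.

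By the mean of the 2 libraries Rps27l, Rps19bp1 and Rps2 stood highest with Il5, and Rps27l and Rps2 were higher with Il5 also as counted. Rps27l was at 66.7 CPM with Il5 and 49.3 without in WT (relative log2 ratio 0.57, interval 0.37 to 0.77) and at 61.1 and 48.1 in Pac1-KO (relative 0.50, interval 0.24 to 0.75). Rps2 was at 2389 and 2249 in WT and at 3624 and 3321 in Pac1-KO (relative 0.22 and 0.28). Rps19bp1 was at 31.1 and 21.1 in WT (relative 0.70) and at 16.9 and 17.3 in Pac1-KO (relative 0.12). The lowest were Rpl7l1, with relative ratios of 0.10 in WT and -0.07 in Pac1-KO, both with intervals that include 0, Rpl13a with 0.05 and 0.06, and Rpl27 with 0.03 and 0.10. Rps2 and Rpl15 were thus near the top by Il5 status (Rpl15 at 0.18 and 0.29) and at the bottom by Txnip status.

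**Figure D4:**
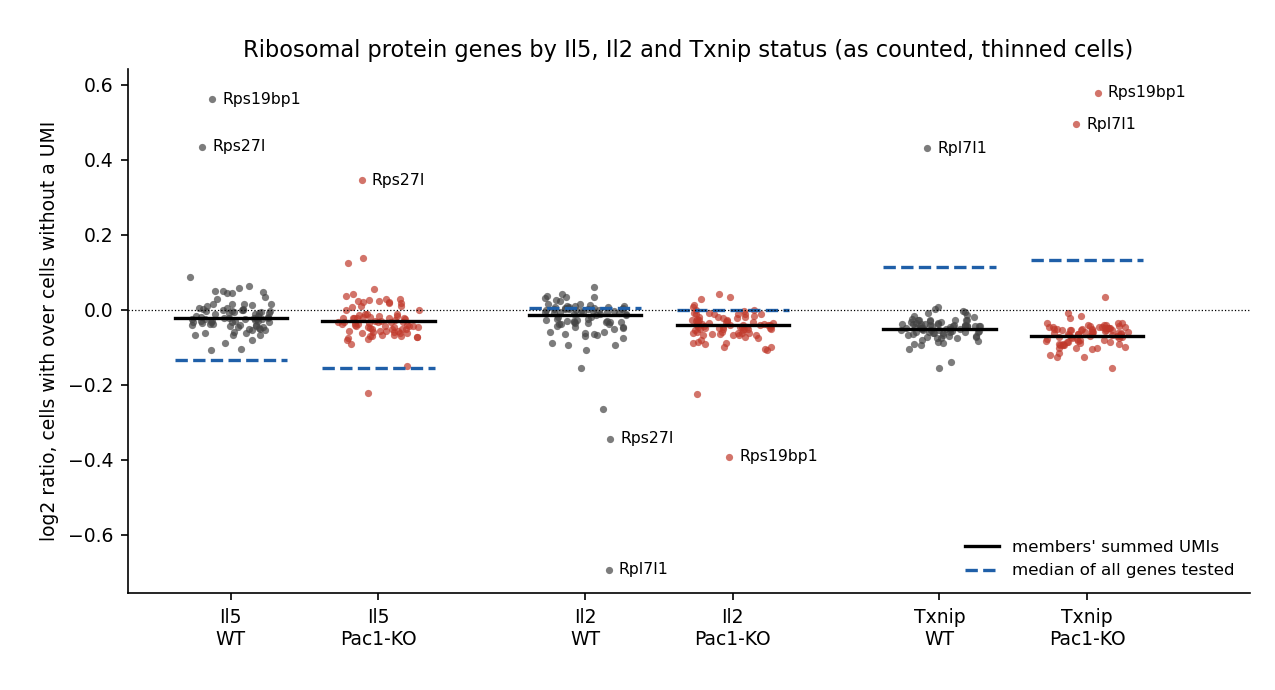
Log2 ratio of each member's level in cells with a UMI of Il5, Il2 or Txnip over cells without one, in thinned cells and without scaling to the median gene. Points are members with at least 200 thinned UMIs, black lines the members' summed UMIs and dashed blue lines the median of all genes tested. Nearly all members lie within 0.2 of 0, below the median gene for Txnip and above it for Il5, and the labelled genes are rare members.

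By Il2 status the members' share was slightly lower with Il2 in both libraries. The members took 27.8% of UMIs in 692 WT cells with Il2 and 28.1% in 6788 without, and 26.6% in 596 and 27.3% in 5874 Pac1-KO cells. The log2 ratios as counted were -0.013 and -0.040, and relative to the median gene they were -0.02 and -0.04, or -0.0034 and -0.0078 with cells thinned to 1000 UMIs. Of the members, 63 of 82 in WT and 78 of 83 in Pac1-KO lay below the median gene, and as counted 54 and 77 were lower with Il2. Markers of other cell types were at 218 CPM with Il2 against 300.2 without in WT and at 282 against 601 in Pac1-KO, and their part was not tested. The share was lower with Il2 in 3 of 5 depth bins in WT and in 5 of 5 in Pac1-KO, there with differences between -1.36 and -0.33 points. No member was above 0.32, where 8.34% of all genes in WT and 7.63% in Pac1-KO were. In WT 2 members were lower against 9.76% of all genes, and in Pac1-KO 1 was lower against 9.09%. The lowest were Rpl7l1 (-0.70 in WT, from 22 UMIs with Il2, and -0.09 in Pac1-KO), Rps19bp1 (-0.27 and -0.39) and Rps27l (-0.35 and -0.05), all with under 70 UMIs in cells with Il2. Among the highest were Rpl37 (0.00 and 0.03) and Rpl23a (0.01 in each library).

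When cells were divided by both Il5 and Txnip, the members' share was highest with neither and lowest with Txnip. In WT it was 28.6% in 3261 cells with neither, 28.0% in 2170 with Il5 alone, 27.4% in 1416 with Txnip alone and 27.2% in 633 with both. In Pac1-KO the order was the same, at 28.0% in 2822 cells, 27.2% in 982, 26.6% in 2198 and 26.1% in 468. The SDs across cells, 4.20 to 4.92 points, were larger than any of these differences. Depth before thinning also differed between the classes. In WT the medians were 4135 UMIs for neither, 5571.5 with Il5 alone, 4170.5 with Txnip alone and 6757 with both. In Pac1-KO they were 5526.5, 7168.5, 5709.5 and 9300. The part of depth in the differences in share was not tested. The short members' part of the member UMIs differed little between the classes, at 24.9% to 25.2% in WT and 10.96% to 11.2% in Pac1-KO. It was slightly lower with Il5 than without, at 24.89% against 25.13% in WT and 11.01% against 11.22% in Pac1-KO.

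**Figure D5:**
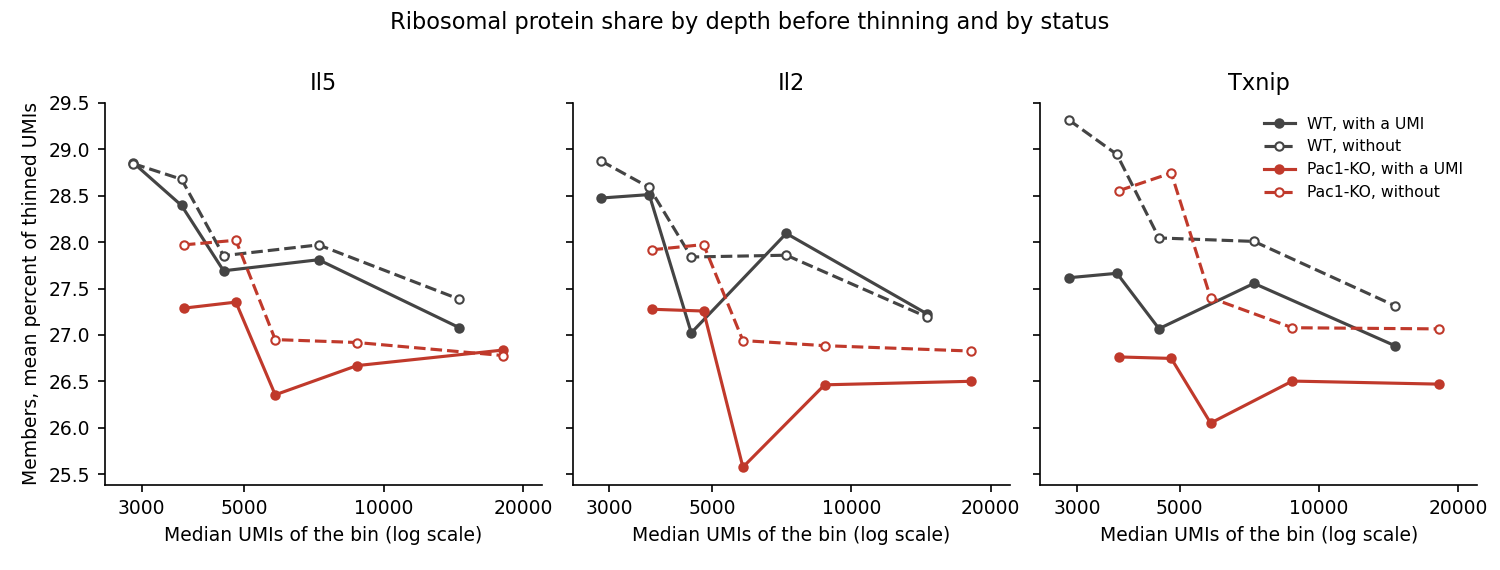
Mean percent of thinned UMIs from the 84 members in 5 bins of equal cell number, placed at the median UMIs of the bin before thinning (log scale), for cells with (filled, solid) and without (open, dashed) a UMI of the gene named above each panel. The vertical axis does not start at 0. Cells with Txnip lie below cells without it in all 5 bins of both libraries, while the lines for Il5 and Il2 cross in at least 1 library.

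Other genes of translation did not share the members' pattern between the libraries. Among ribosomal proteins with other symbols, Fau, a small subunit protein made as a fusion, went from 6071 CPM in WT to 4874 in Pac1-KO (relative log2 ratio -0.50), and Rack1 from 1640 to 2103 (relative 0.17). Of 15 translation factors and other genes with TOP mRNAs, 4 were higher, 0 were lower and the median was 0.20, from Eef1b2 at -0.29 to Btf3 at 0.68. Of 22 genes of ribosome biogenesis, 4 were higher and 10 lower with a median of -0.27, from the nucleolar helicase Ddx21 (333 to 152 CPM, relative -1.32) to the snoRNP protein Gar1 (24.1 to 37.4, relative 0.45). Of 11 regulators of this translation, 1 was higher, Eif4ebp1 at 0.60, and 3 were lower, with Eif4e lowest at -0.40. Of 78 mitochondrial ribosomal protein genes, 39 were higher and 7 lower, with a median of 0.32, from Mrpl52 at -1.13 to Mrps24 at 0.98. All these counts stand beside 21.6% higher and 24.4% lower among all genes.

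By Txnip status the TOP list moved with the members, at medians of -0.16 in WT and -0.18 in Pac1-KO relative to the median gene, with 0 of 15 genes past 0.32 in either direction. Biogenesis genes were at 0.01 and 0.00. By Il5 status the TOP list was at 0.14 in WT and 0.15 in Pac1-KO and biogenesis genes at 0.11 and 0.13, the same sign as the members. The mitochondrial ribosomal genes were at 0.12 and 0.13 by Txnip status and at -0.16 and -0.18 by Il5 status, the opposite signs to the members in both. As counted, their medians by Il5 status stayed below 0 as did the members' sum.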

How the data were processed

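Lung ILC2s (lineage-negative, CD90.2+, ST2+, Sca-1+) were profiled with 10x Genomics 3′ v3.1 chemistry, in 1 WT and 1 Pac1-KO library. The deposited values were raw UMI counts, from Cell Ranger runs of the authors against mm10. The submitters' processing notes name version 6.1.1 and the file header 4.0.0, and the annotation release is not given in the sources used here. Cell Ranger by default does not count reads that match several annotated genes, which can lower or shift counts of genes with near-identical copies.

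Barcodes with at least 500 genes and at most 10% mitochondrial UMIs were kept, 8394 WT and 7087 Pac1-KO, from totals of 56182065 and 60283285 UMIs. No doublet caller was run, and the study's own cell filter was not applied. UMIs were summed per library, and log2 ratios of counts per 1000000 UMIs (CPM) were given as counted and relative to the median of genes with 50 UMIs (called above 0.32 or below -0.32). Ratios of single genes for calls carried a prior of 0.5 counts. Exact binomial (ratios, shares) and Poisson (levels) 95% intervals cover counting error only. For status, cells were thinned without replacement to 2000 UMIs, shallower cells were left out (914 WT and 617 Pac1-KO), the status gene was left out of totals, and genes with 200 thinned UMIs were used. Coding and transcript lengths came from GENCODE M21 (GRCm38) and start windows from RefSeq (GRCm38.p6). With 1 library per genotype there was no test. The functions were tested on simulated data with known fold changes.

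The members and gene lists were chosen with earlier results of these data known. The genes named were the 5 members with the most UMIs, the 5 highest and 5 lowest between genotypes among those with 1000 UMIs, the 3 highest and 3 lowest per status gene by the mean of both libraries, the paralog pairs, the stalk genes and Rpsa, members under 1000 UMIs, and the highest and lowest gene with 1000 UMIs of each other list. Results of some genes that this rule names are not reported here. Others (such as Rpl35, Rpl37, Rpl37a, Rpl39, Rpl41 and Rpl6) were named after their values were seen. Alternatives were scaling, cell filters, depth, status threshold and coding length. Analyses used Python 3.11.15, numpy 2.4.6, scipy 1.17.1 and pandas 2.3.3.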

Additional observations from a re-analysis of the deposited data

Results flagged for a closer look

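Names holding "-ps" were left out of the members, yet 3 of them had UMIs well above 0. Rpl9-ps6 had 13760 UMIs over both libraries, 10430 in WT and 3330 in Pac1-KO, a relative log2 ratio of -1.93 (interval -1.99 to -1.87), opposite in sign to Rpl9. Its coding sequence differs from that of Rpl9 at 1 of 576 bases, G266A, counted from 1 at the first base of the start codon. The 30 coding bases from 252 to 281 show that difference in capitals.
Rpl9, chr5:65388364-65391444, minus strand: cacgctgggcttccGatacaagatgcggtc
Rpl9-ps6, chr19:32465865-32466578, minus strand: cacgctgggcttccAatacaagatgcggtc
Of the pair's UMIs, Rpl9-ps6 held 7.23% in WT and 1.22% in Pac1-KO, and the summed pair had a relative ratio of 0.64. Rpl10-ps3 had 3772 UMIs (21.2 and 44.8 CPM, relative 0.89), close to Rpl10 at 0.79. Rpl36a-ps1 had 639 UMIs (2.13 and 8.96 CPM, relative 1.89), opposite in sign to Rpl36a at -0.90, from which its coding sequence differs at 7 of 318 bases. How reads were divided between these genes and their near copies is uncertain, and the counting intervals do not cover it. The ratios of the copies, also where opposite in sign, should be read with that.

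The relative log2 ratio by status had opposite signs in the 2 libraries for 1 of 82 members by Il5, 21 by Il2 and 1 by Txnip, and the difference was not tested. Examples among the highest and lowest members per status gene follow. Rps19bp1 by Txnip status was at -0.10 in WT and 0.45 in Pac1-KO, with the interval of the WT value including 0. Rpl7l1 by Il5 status was at 0.10 and -0.069, with intervals that both include 0. Rpl37 by Il2 status was at -0.0022 and 0.034.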

How the results depend on the processing

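No paired analysis was possible because each genotype had 1 library, and leaving out a library would leave no comparison. Relative to the median gene, the members' summed log2 ratio of -0.22 stayed between -0.23 and -0.22 over cell filters and depth: -0.217 with at least 1000 genes per barcode, -0.225 without barcodes over 2 times the median UMIs, -0.220 after thinning to 2000 UMIs and -0.216 with at least 3 ILC2 markers. It was -0.031 as counted. In alternatives chosen after seeing the data it was 0.028 over members with 300 coding bases or more, -1.40 over the shorter ones, which holds by construction fewer members, and -0.52 in barcodes that failed the filter. The 22 higher members became 35 as counted and 5 in failing barcodes, and the 24 lower members became 15 among those with 300 coding bases or more and 39 in failing barcodes, where 29.6% of all genes were higher and 32.4% lower. The cause was not tested.

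By Il5 status the ratios of 0.11 in WT and 0.13 in Pac1-KO became -0.022 and -0.029 as counted, 0.070 and 0.084 thinned to 1000 UMIs, 0.15 and 0.20 with a threshold of 2 UMIs, 0.13 and 0.14 without the deepest barcodes, and 0.014 and 0.018 as means over depth bins. By Txnip status -0.16 and -0.20 became -0.050 and -0.068 as counted, -0.14 and -0.14 thinned to 1000 UMIs, -0.22 and -0.26 with 2 UMIs, -0.19 and -0.22 without the deepest barcodes, and -0.078 and -0.10 over depth bins, negative in each. By Il2 status -0.02 and -0.04 became -0.0034 and -0.0078 thinned to 1000 UMIs and -0.0028 and -0.021 with 2 UMIs. In WT it was -0.013 as counted and -0.011 over depth bins, and in Pac1-KO -0.046 without the deepest barcodes.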
